A study of Oryza sativa with 6 samples.

Results

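In rice roots grown beside the floating fern Azolla filiculoides, 113 of the 37863 loci of the count table were higher in the co-cultivated libraries numbered 1 and 3 than in every control library, while co-cultivated replicate 2 stayed well under both. They were chosen from the counts themselves. Counts were scaled by the column total of each library and are given as CPM, counts per 1e6 counts of the library. A locus was kept when the lower of its values in co-cultivated replicates 1 and 3 was at least 5 CPM, at least 3 times the value in co-cultivated replicate 2 plus 0.1 CPM, and above all 3 controls. Of 15631 loci that reached 5 CPM in both libraries, 2850 were also above all controls, and 118 (0.755%) met all 3 conditions. A further step left out 5 of these by their identifiers, on chromosomes 2 and 4. The selection read all 6 libraries, so the levels below describe the members and no test is attached to them.

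The plants were Oryza sativa of the cultivar Kitaake, raised in hydroponic boxes that each held 4 plants transplanted as seedlings of 13 days into Yoshida nutrient solution. The 3 control libraries came from rice alone in boxes whose surface was covered to keep algae out, and the 3 co-cultivated libraries came from rice sharing the box with living Azolla, so the cover differed between the groups along with the fern. RNA was taken 15 days after transplanting (15 DAT) from the last 1 cm of the roots, and polyadenylated RNA was made into stranded libraries. The labels call the 3 samples of each group biological replicates. Each library is a pool of whole root tips, so fewer cells of a type and less RNA per cell cannot be told apart.

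Most lists used to name the members hold defence and stress genes, so the roles of the 31 named members say nothing of the other 82. Jasmonates are lipid hormones made from plastid fatty acids by lipoxygenases and allene oxide synthase, and they switch on defence genes after wounding or attack. Rice also makes diterpenoid phytoalexins, small antimicrobial compounds built from geranylgeranyl diphosphate, and root tips are among the tissues that make and release them. Pathogenesis-related proteins and many germin-like proteins are abundant products of the same responses, and WRKY transcription factors bind W-box sequences in defence gene promoters.

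The libraries held between 21551508 and 25120456 estimated counts. Across all loci co-cultivated replicates 1 and 3 were most alike, with a Spearman correlation of 0.984, and replicate 2 correlated with them at 0.974 and 0.968, a description across loci that share library and depth. Correlations between control libraries were 0.947 to 0.977 and those between the groups 0.927 to 0.955. Co-cultivated replicate 2 therefore lay within its own group over the whole table, and its total of 25120456 was the highest of the 6.

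Together the 113 members made up 0.213%, 0.253% and 0.273% of all counts in control replicates 1, 2 and 3. Their share was 0.653% in co-cultivated replicate 1, 0.117% in replicate 2 and 0.803% in replicate 3. The median member stood at 6.48, 5.57 and 8.80 CPM in the controls and at 22.0, 3.07 and 28.0 CPM in the co-cultivated libraries in the same order. Replicate 2 was thus the lowest of all 6 libraries in both summaries, below the controls as well as below its own group. The conditions fixed the height of replicates 1 and 3 over the controls and over replicate 2. Because they also required a low replicate 2, its place against the controls is partly set by the selection and is given as a description.

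**Figure D1:**
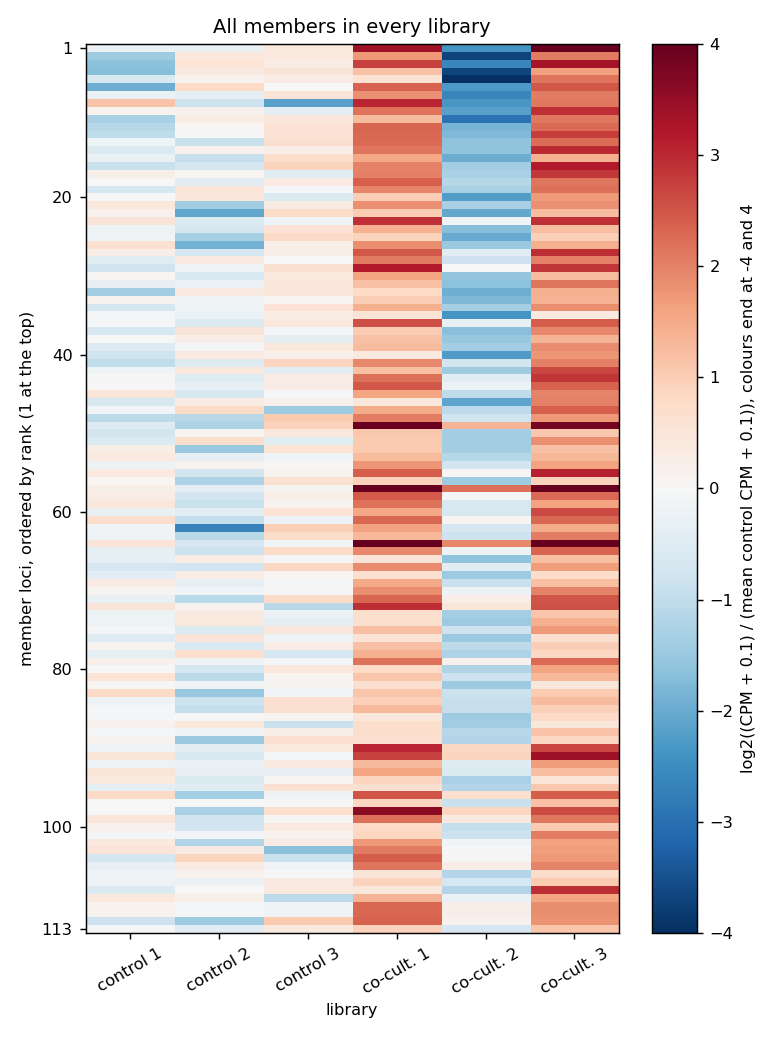
All 113 members (rows, highest ratio of co-cultivated replicates 1 and 3 to replicate 2 at the top) in the 6 libraries (columns); colour is log2 of CPM plus 0.1 over the mean control CPM plus 0.1, and the colour scale is cut at both ends. Co-cultivated replicates 1 and 3 are red throughout, as the selection requires, while replicate 2 is blue in most rows and lies below all controls in 69 of 113.

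In 69 members (61.1%) co-cultivated replicate 2 was below all 3 controls, in 36 it lay between them, and in 8 it was above them. Among the 15518 other loci at 5 CPM or more in replicates 1 and 3, the share below all controls was 33.6%, and 25.6% were above all controls. Those loci were not chosen for a low replicate 2, so nothing is read from the difference. The mean of the controls was 2.24 times replicate 2 in the median member, over a range of 0.200 to 21.4. In 61 members the control mean was at least 2 times replicate 2. The ratio used to rank the members, the lower of replicates 1 and 3 over replicate 2 plus 0.1, ran from 3.01 to 55.6 with a median of 5.04, and it was at least 10 in 16 members and under 4 in 35.

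On the high side, the lower of co-cultivated replicates 1 and 3 was 1.82 times the highest control in the median member, with a range of 1.02 to 21.8. It was at least 2 times the highest control in 48 members and under 1.5 times in 36. Both a value of at least 2 times the highest control and a replicate 2 below every control were met by 19 members.

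Control libraries also differed among themselves at these loci. The highest control was 2.23 times the lowest in the median member and 1.41 times in the other loci, and the controls spanned at least 2-fold in 66 members (58.4%) against 18.3% of the other loci. Control replicate 2 was the lowest control in 65 members (57.5%, against 37.0% of the other loci) and control replicate 3 the highest in 58 (51.3%, against 33.2%). Replicates 1 and 3 of the co-cultivated group were within 1.5 times of each other in 80 members (70.8%, against 93.9%). Replicate 3 exceeded replicate 1 in 71 members (62.8%), near the 61.1% of the other loci. It was at least 2 times replicate 1 in 9 members, and replicate 1 was at least 2 times replicate 3 in 1.

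The comparison the design states, co-cultivated against control with 3 libraries each, called 360 of 24615 loci higher (1.46%) and 288 lower (1.17%) by edgeR's quasi-likelihood test at a Benjamini-Hochberg adjusted p under 0.05. All 113 members were tested, and 2 of them (1.77%) were called higher and 0 lower; at an unadjusted p under 0.05 there were 31 members (27.4%) against 20.4% of all loci. Since the selection used this contrast, nothing is read from these counts. DESeq2 called 24 members higher against a background of 6.17% of loci, and limma-voom called 0 against 1.26%. The fit without co-cultivated replicate 2 called 26 members, against 0.900% of its loci. The selection had already required co-cultivated replicates 1 and 3 to exceed every control, so nothing is read from this count either. Both loci called by edgeR have no name here and are given because the count is small. Os08g0476900 measured 1.11, 0.696 and 1.01 CPM in control replicates 1 to 3 and 24.2, 4.70 and 30.9 CPM in co-cultivated replicates 1 to 3. Os11g0117500 measured 0.977, 0.371 and 0.591 CPM and 12.6, 2.75 and 19.0 CPM in the same order. At both, all co-cultivated libraries exceeded all controls, replicate 2 by the smallest distance.

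Of the members, 31 carry a name, 10 of them with a symbol whose chromosome and gene order were checked against a gene table; the others are written as listed, since their names rest on general knowledge of the locus. The remaining 82 have no name here. For each named member the values are given as CPM in control replicates 1, 2 and 3 and then in co-cultivated replicates 1, 2 and 3. CPM is not scaled to gene length, so levels are compared between libraries and not between genes.

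Jasmonate synthesis from linolenic acid was represented by 3 members. CM-LOX2 (Os08g0509100), the gene table's name for the lipoxygenase locus listed as HI-LOX, measured 4.57, 7.76 and 8.80 CPM in the controls and 10.8, 0.328 and 31.5 CPM in the co-cultivated libraries. Co-cultivated replicate 2 was far below every control there, and replicate 1 only slightly above the highest of them. The 8.25 counts in replicate 2, rounded to 8, give ratios of 33.8 for replicate 1 (95% exact interval 16.91 to 79.2) and 98.8 for replicate 3 (49.9 to 229.6). These intervals cover counting error alone and not how reads were assigned to loci. The selection used these ratios, so the intervals are no test of them. Its neighbour CM-LOX1 (Os08g0508800), the gene table's name for the lipoxygenase locus listed as LOX2, stood at 5.02, 5.19 and 3.56 CPM against 21.2, 0.945 and 35.7 CPM. AOS2 (Os03g0225900), an allene oxide synthase that acts after the lipoxygenase step, stood at 30.3, 29.6 and 35.3 CPM against 57.6, 17.5 and 133 CPM. In all 3 genes replicate 2 lay below every control and replicate 3 above replicate 1, by 1.69 to 2.92 times. Of these 3 members, the 2 lipoxygenases held counts that were not whole numbers. In co-cultivated replicate 2 these were 23.75 for CM-LOX1 and 8.25 for CM-LOX2. In every library the 2 counts added up to a whole number, as they would if reads were divided between these loci. Their separate levels depend on that division, so they are not independent observations.

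**Figure D2:**
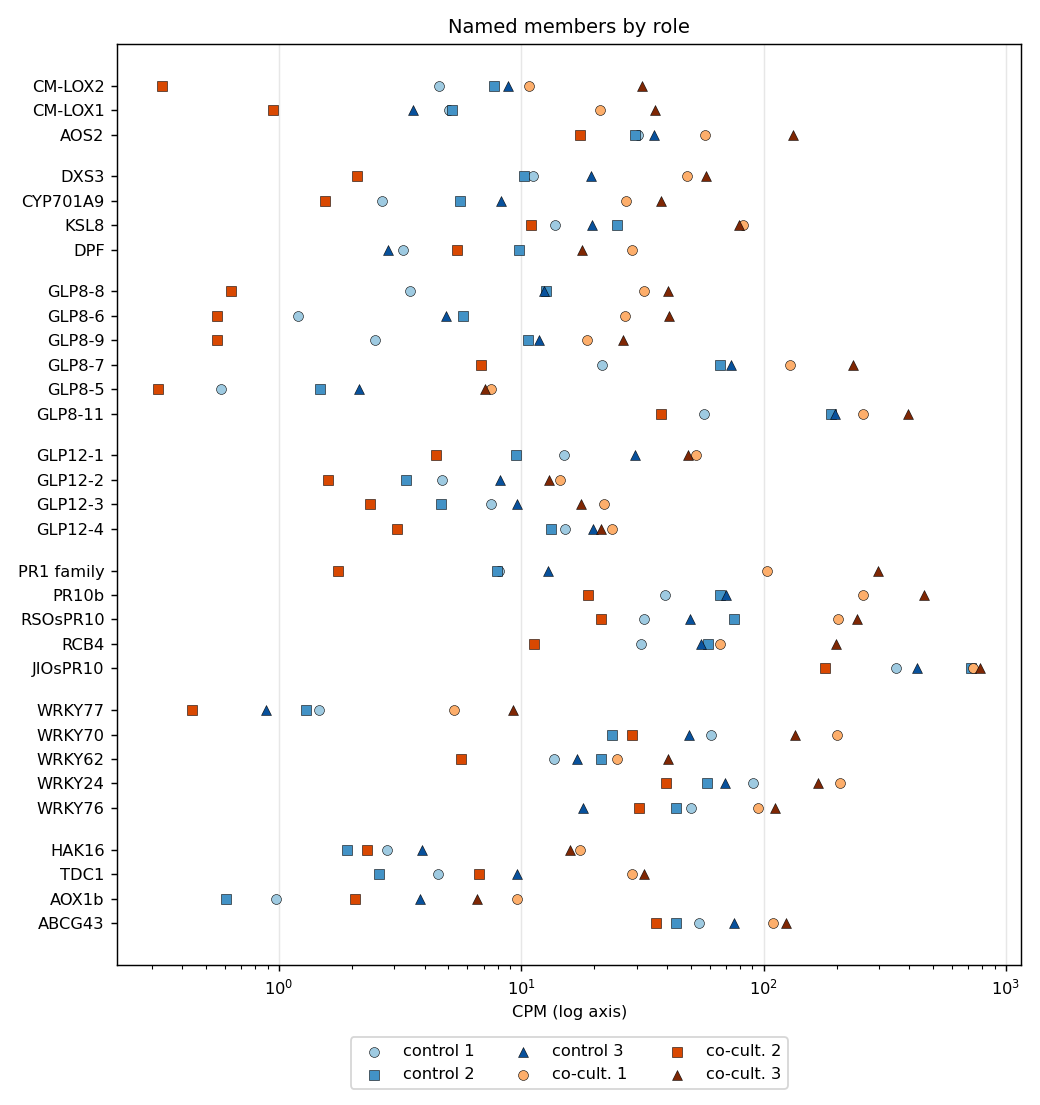
The 31 named members, grouped by role, with 1 point for each library on a log axis of CPM; blue marks are controls, orange and brown marks co-cultivated libraries. In the jasmonate, pathogenesis-related and germin-like groups the square of co-cultivated replicate 2 lies left of all controls, while in 3 of 4 genes of the bottom group it falls among them.

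Genes tied to diterpenoid phytoalexins gave 4 members, 3 from the list and CYP701A9, which was named after its values were seen. The gene listed as DXS3 (Os07g0190000), for an enzyme at the entry of the plastid isoprenoid pathway that supplies the diterpenoid precursor, measured 11.2, 10.3 and 19.4 CPM in the controls and 48.5, 2.11 and 57.7 CPM in the co-cultivated libraries. A locus listed as KSL8 (Os11g0474800), a kaurene synthase-like enzyme that forms the hydrocarbon skeleton of an oryzalexin, measured 13.8, 24.9 and 19.5 CPM against 82.5, 10.99 and 79.4 CPM. CYP701A9 (Os06g0568600), a cytochrome P450 of the family that holds kaurene oxidase, measured 2.66, 5.57 and 8.23 CPM against 27.1, 1.55 and 37.9 CPM. These 3 had replicate 2 below every control, and replicates 1 and 3 more than 2 times the highest control. Different was the gene listed as DPF (Os01g0196300), no enzyme but a bHLH transcription factor that activates phytoalexin genes in rice: it measured 3.24, 9.84 and 2.83 CPM against 28.6, 5.45 and 17.87 CPM, so replicate 2 fell between the controls. Summed over the 4 genes, levels were 30.9, 50.6 and 49.99 CPM in the controls and 187, 20.1 and 193 CPM in the co-cultivated libraries.

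The longest run of members was 6 loci listed as germin-like proteins within 7 neighbouring loci of chromosome 8. Germin-like proteins are cell wall glycoproteins of the cupin fold, some of which produce hydrogen peroxide, and the chromosome 8 family of rice is known from work on resistance to blast. GLP8-8 (Os08g0189700) measured 3.46, 12.7 and 12.4 CPM in the controls and 32.1, 0.637 and 40.4 CPM in the co-cultivated libraries. GLP8-6 (Os08g0189500) measured 1.20, 5.75 and 4.89 CPM against 26.7, 0.557 and 40.8 CPM. GLP8-9 (Os08g0189850) measured 2.49, 10.6 and 11.9 CPM against 18.7, 0.557 and 26.2 CPM. In each of these replicate 2 held 14 to 16 counts, replicates 1 and 3 held 439 or more, and the groups of values left a gap on both sides of the controls. GLP8-7 (Os08g0189600) stood at 21.6, 65.8 and 73.7 CPM and 129, 6.85 and 234 CPM. GLP8-5 (Os08g0189400), at a low level, stood at 0.577, 1.48 and 2.15 CPM and 7.497, 0.318 and 7.11 CPM. GLP8-11 (Os08g0190100) stood at 56.7, 189 and 197 CPM and 258, 37.6 and 393 CPM. All 6 had control replicate 1 as the lowest control and co-cultivated replicate 2 below it. The control mean was 3.92 to 15.0 times replicate 2 over the 6 loci, and their summed level was 86.0, 286 and 302 CPM in the controls against 472, 46.5 and 742 CPM. The wide gap inside the control group, with replicate 1 low, was thus part of the pattern of this run.

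The other 5 loci of the chromosome 8 run were no members, and they were not alike. GLP8-10 (Os08g0189900), inside the run of members, measured 26.8, 88.9 and 87.2 CPM against 87.1, 4.78 and 155 CPM and missed the selection because co-cultivated replicate 1 did not exceed control replicates 2 and 3. GLP8-3 (Os08g0189200) measured 115, 54.7 and 161 CPM against 574, 225 and 285 CPM, and GLP8-4 (Os08g0189300) measured 21.1, 36.1 and 16.6 CPM against 459, 155 and 167 CPM. At both, replicate 2 was above all controls, and edgeR called GLP8-4 higher with a log2 fold change of 3.45 (adjusted p = 0.0255). GLP8-1 and GLP8-2 stayed under 10 CPM in every library. The members of one gene family in one stretch of chromosome therefore split between loci where replicate 2 was the lowest of 6 libraries and loci where it stood with its group. Genes of this family are close copies, and 1 of the 6 members, GLP8-8, held values that were not whole. In co-cultivated replicate 1 it held 754.24 counts, and GLP8-10, which was no member, held 2045.76. In every library the counts of these 2 loci added up to a whole number, as they would if reads were divided between them. Their separate levels depend on that division, so they are not independent observations. The gene table of the assembly ASM3414082v1 lists 472 genes on chromosome 8 between the checked genes LHY and 4CL1, and 6 of them carry germin-like names.

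On chromosome 12, 4 adjacent loci listed as germin-like proteins were all members, with no other locus between them. GLP12-1 (Os12g0154700) measured 15.0, 9.56 and 29.6 CPM in the controls and 52.5, 4.46 and 48.6 CPM in the co-cultivated libraries. GLP12-3 (Os12g0154900) measured 7.502, 4.69 and 9.58 CPM against 22.0, 2.39 and 17.6 CPM. The other 2 shared the order of the libraries: in all 4, replicate 2 was below every control, control replicate 2 was the lowest and control replicate 3 the highest control. Replicate 3 was 0.799 to 0.925 times replicate 1, the reverse of 5 of the 6 loci on chromosome 8. At GLP12-4 (Os12g0155000) the distance from the controls was small, with 15.2, 13.3 and 19.8 CPM against 23.7, 3.07 and 21.3 CPM. Values that were not whole occurred at 2 of these 4 loci, GLP12-1 and GLP12-4, with 1232.95 and 556.05 counts in co-cultivated replicate 1. In every library their counts added up to a whole number, as they would if reads were divided between them. The 4 loci are therefore not independent observations.

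**Figure D3:**
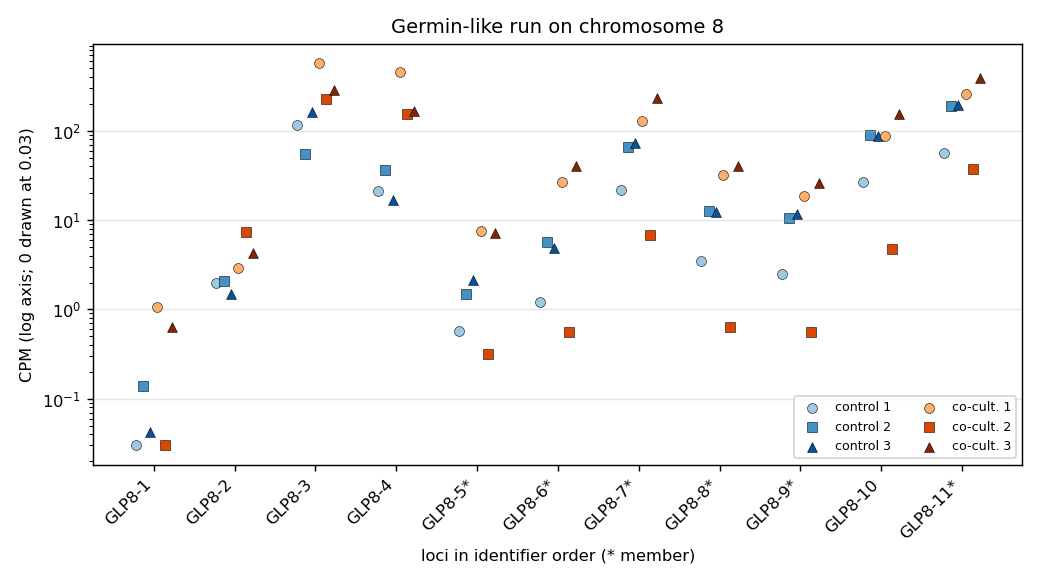
CPM (log axis, 0 drawn at 0.03) of the 11 loci listed as germin-like proteins on chromosome 8 in identifier order, with 1 point for each library and members marked with a star. Co-cultivated replicate 2 is the lowest library at GLP8-5 to GLP8-11 and above all controls at GLP8-3 and GLP8-4.

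Pathogenesis-related proteins gave the member with the highest ratio. A locus listed as a PR1 family gene (Os07g0129300), a family of small secreted proteins used as markers of salicylate and jasmonate responses, measured 8.12, 7.93 and 13.0 CPM in the controls and 103, 1.75 and 298 CPM in the co-cultivated libraries. Its lower value in replicates 1 and 3 was 55.6 times replicate 2 plus 0.1 CPM and 7.94 times the highest control. Control values kept to a narrow band here, and replicates 1 and 3 themselves differed by 2.90 times.

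PR10 proteins are small proteins of the cell interior that resemble ribonucleases. On chromosome 12, 2 loci listed as PR10 family genes have 1 other locus between them. The first (Os12g0555000) measured 39.1, 66.4 and 70.0 CPM against 257, 18.9 and 461 CPM, and the second (Os12g0555200) measured 32.1, 75.5 and 49.7 CPM against 203, 21.4 and 244 CPM. Replicate 2 was below all controls at both. The locus between them (Os12g0555100) was no member and measured 3.95, 11.3 and 1.31 CPM against 66.9, 14.1 and 17.8 CPM. There replicate 2 was above all controls. On chromosome 3, the gene listed as JIOsPR10 (Os03g0300400), named for its response to jasmonic acid, measured 352, 715 and 431 CPM against 735, 179 and 783 CPM, and control replicate 2 nearly reached co-cultivated replicate 1. RCB4 (Os10g0416500), a chitinase that cuts a polymer of fungal cell walls and was named after its values were seen, measured 31.3, 59.3 and 55.1 CPM against 66.4, 11.3 and 198 CPM. In all 5 genes of this group replicate 2 was below every control and replicate 3 was above replicate 1. Their summed level was 463, 925 and 619 CPM in the controls and 1363, 233 and 1983 CPM in the co-cultivated libraries, which was 19.9% to 36.5% of all member counts in each library.

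Among the transcription factors, 5 WRKY genes were members. The pair WRKY62 and WRKY76, neighbours on chromosome 9 and both known in rice as repressors of defence against blast and bacterial blight, differed in where replicate 2 fell. WRKY62 (Os09g0417800) measured 13.7, 21.4 and 17.0 CPM in the controls and 24.9, 5.65 and 40.5 CPM in the co-cultivated libraries. WRKY76 (Os09g0417600) measured 50.3, 43.4 and 17.97 CPM against 94.8, 30.8 and 111 CPM. Replicate 2 lay below all controls at WRKY62 and above the lowest control at WRKY76. WRKY24 (Os01g0826400), a repressor of gibberellin and abscisic acid responses in rice aleurone cells, measured 90.9, 58.5 and 69.0 CPM against 207, 39.6 and 168 CPM. The gene listed as WRKY70 (Os05g0474800) measured 60.6, 23.7 and 49.1 CPM against 201, 28.7 and 135 CPM, and that listed as WRKY77 (Os01g0584900), at a low level, 1.46, 1.30 and 0.886 CPM against 5.28, 0.438 and 9.24 CPM. Replicate 2 lay below all controls in 3 of the 5 and between them at WRKY70 and WRKY76. Control replicate 1 was the highest control in 4 of the 5, unlike the germin-like runs, where it was the highest at no locus.

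A further 4 named members have other roles, and HAK16 and ABCG43 among them were named after their values were seen. HAK16 (Os03g0575200), of the potassium transporter family, measured 2.80, 1.90 and 3.88 CPM in the controls and 17.5, 2.31 and 15.9 CPM in the co-cultivated libraries. The gene listed as TDC1 (Os08g0140300), a tryptophan decarboxylase that makes tryptamine on the route to serotonin, measured 4.53, 2.598 and 9.58 CPM against 28.6, 6.69 and 32.1 CPM. The gene listed as AOX1b (Os04g0600300), a mitochondrial alternative oxidase, measured 0.977, 0.603 and 3.84 CPM against 9.58, 2.07 and 6.55 CPM. In these 3 replicate 2 lay between the controls. ABCG43 (Os07g0522500), an exporter of the pleiotropic drug resistance type of ABC transporters, measured 54.4, 43.4 and 75.7 CPM against 109, 36.1 and 124 CPM, with replicate 2 below every control. Each of the 4 had control replicate 2 as its lowest and control replicate 3 as its highest control.

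The 82 unnamed members made up 39.5% to 58.7% of the member counts in each library. Replicate 2 was below all controls in 44 of them, between the controls in 30 and above all controls in 8, so all 8 members with replicate 2 above the controls were unnamed. The highest ranked was Os09g0507300, which measured 0.178, 1.76 and 0.970 CPM in the controls and 5.45, 0.119 and 5.86 CPM in the co-cultivated libraries. Its 3 counts in replicate 2 give a ratio of 45.7 for replicate 1 (95% exact interval 15.3 to 224) and 49.1 for replicate 3 (16.5 to 241). Here too the selection used these ratios, so the intervals only show the counting error. The next, Os01g0216000, measured 15.5, 3.80 and 1.48 CPM against 58.0, 1.31 and 30.1 CPM, and its controls differed more from each other than replicate 3 did from control replicate 1. A pair of unnamed members on chromosomes 3 and 11 had identical counts in all 6 libraries and may hold the same reads.

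**Figure D4:**
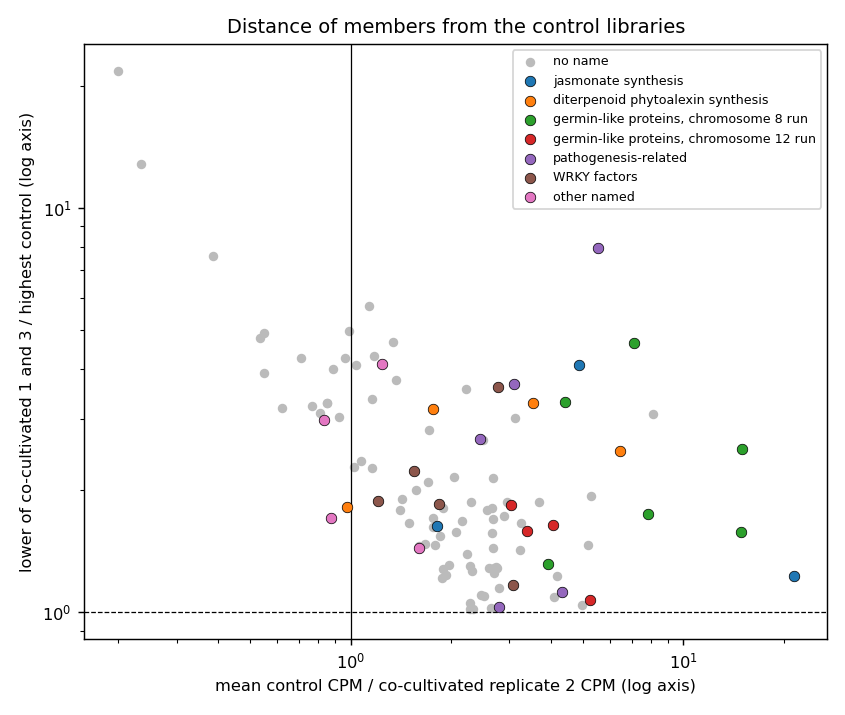
Each member by the mean of its control CPM over co-cultivated replicate 2 (horizontal, log axis) and by the lower of co-cultivated replicates 1 and 3 over the highest control (vertical, log axis), coloured by role. Named germin-like, jasmonate and pathogenesis-related members lie right of the vertical line, where replicate 2 is under the control mean, and the 2 highest points are unnamed loci at 21.8 and 12.9 times the highest control.

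Position was not among the thresholds, but 5 loci were left out by identifier, 4 of them in a short stretch of chromosome 4, so the counts by position below hold only after that step. Another member lay within 5 loci of the table, in identifier order, for 27 members (23.9%), while 2.38% of the other 15518 loci had a member that near. Within 2 loci the shares were 23.9% and 0.909%, and within 10 loci they were 31.0% and 4.67%. The 27 fell into 10 runs. These were the 6 loci on chromosome 8, the 4 on chromosome 12, a run of 3 unnamed loci within 4 on chromosome 6, and 7 pairs, among them the lipoxygenases, the PR10 loci and WRKY76 with WRKY62. Neighbouring copies of one family can share reads, so members of a run are not independent observations. By chromosome, 15 members lay on chromosome 8 (1.49% of its loci at 5 CPM or more), 11 on chromosome 12 (1.32%) and 21 on chromosome 1 (0.927%), while chromosome 2 had the lowest share with 7 (0.368%).

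The wider pathways of the named members were followed in lists of genes, with the members set aside because their order is fixed by the selection. The lists were chosen with earlier results of these data known, so the shares below are a description and no independent check. Among the 24502 tested loci that were no members, replicate 2 was the lowest co-cultivated library in 35.9%. In jasmonate synthesis and turnover it was the lowest in 12 of 14 such genes, and the median log2 ratio to the control mean came to 0.60, 0.05 and 0.54 for co-cultivated replicates 1, 2 and 3. In jasmonate signalling, which held no member, it was the lowest in 17 of 18, with medians of 0.78, 0.00 and 0.68. AOS1 (Os03g0767000), an allene oxide synthase, measured 268, 178 and 124 CPM against 404, 212 and 391 CPM. JAZ7 (Os07g0615200), a repressor that jasmonate removes, measured 306, 329 and 313 CPM against 501, 384 and 529 CPM. At AOS1 replicate 2 lay between the controls, and at JAZ7 all co-cultivated libraries exceeded all controls. JAZ10 (Os03g0181100), also of the signalling list, measured 617, 452 and 330 CPM against 804, 455 and 595 CPM. There replicate 2 lay between the controls and replicate 3 was under control replicate 1. In both lists the medians of replicates 1 and 3 were above that of replicate 2, which was near the control mean; unlike the members as a whole, replicate 1 was above replicate 3. edgeR called 0 of the 17 synthesis and 0 of the 18 signalling genes in either direction, against 1.46% of all loci higher and 1.17% lower. At an unadjusted p under 0.05 edgeR had 7 genes in each of these lists, against 20.4% of all loci; DESeq2 called 2 synthesis genes higher and 2 lower and 3 signalling genes higher, against 6.17% of all loci higher, and limma-voom called 0 in both.

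Phenylpropanoid, flavonoid and phenylamide synthesis, the source of lignin and phenolic defences, had replicate 2 lowest in 22 of 25 genes that were no members, with medians of 0.78, 0.04 and 0.58. WRKY factors had it lowest in 18 of 20, with medians of 0.75, -0.11 and 0.55. Pathogenesis-related proteins and protease inhibitors had it lowest in 16 of 21, with medians of 0.00, -0.80 and 0.42, so the median of replicate 2 was under the control mean. The sum of this list, members included, was 4828, 4076 and 7763 CPM in the controls against 7293, 4135 and 7929 CPM. By that sum replicate 2 was just above control replicate 2. At the most abundant other genes, CHT2 and those listed as PR1-101 and RBBI2-4, replicate 2 lay between the controls. Diterpenoid genes had it lowest in 4 of 5, with medians of 1.16, -0.28 and 2.50. This list covers only part of the pathway, without the chromosome 2 and 4 loci left out of the selection. Only 5 of its loci, 3 of them members, reached 5 CPM in both replicates 1 and 3. At the gene listed as TGAP1 (Os04g0637000) replicate 2 was the highest of its group, with 48.3, 58.8 and 34.8 CPM against 43.6, 47.7 and 38.4 CPM. Of these lists edgeR called 1 gene, listed as WRKY64 (Os12g0116700), higher (log2 fold change 2.34, adjusted p = 0.0318) and 0 lower. The unadjusted p was under 0.05 in 12 of 26 phenylpropanoid, 6 of 25 WRKY, 3 of 25 pathogenesis-related and 5 of 8 diterpenoid genes, members included, against 20.4% of all loci. DESeq2 called 10, 4, 2 and 1 of them higher, against 6.17% of all loci, and 0 lower, and limma-voom called 0, against 1.26% higher. The pathogenesis-related counts are near or under these shares, and since members are included nothing more is read from the others. The only tested volatile terpene synthase, listed as TPS46 (Os08g0168400), measured 0.222, 0.882 and 1.14 CPM against 4.98, 0.0398 and 13.4 CPM and missed the selection because replicate 1 was just under 5 CPM.

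In the other lists, against the same 35.9% of loci that were no members, replicate 2 was the lowest in 8 of 16 stress-linked NAC, ERF, MYB and zinc finger factors (50%), in 7 of 12 genes of immune perception and signalling (58.3%), in 8 of 13 detoxification genes that were no members (61.5%), in 4 of 9 genes of ethylene synthesis, in 1 of 3 heat shock genes and in 1 of 8 clock genes. Differences between lists were not tested. These 6 lists held 16, 12, 14, 9, 3 and 8 tested genes in that order, members included. Among these edgeR called NAC4 (Os01g0816100, log2 fold change 1.77, adjusted p = 0.0359) and the catalase gene listed as CATC (Os03g0131200, log2 fold change 2.14, adjusted p = 0.0319) higher. It called 0 lower, against 1.46% of all loci higher and 1.17% lower. Its unadjusted p was under 0.05 in 16 genes, against 20.4% of all loci. DESeq2 called 11 genes of these 6 lists higher, against 6.17% of all loci, and 1 lower. With limma-voom 1 was called higher, against 1.26%. Over all loci that were no members the medians were -0.12, -0.06 and -0.03.

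**Figure D5:**
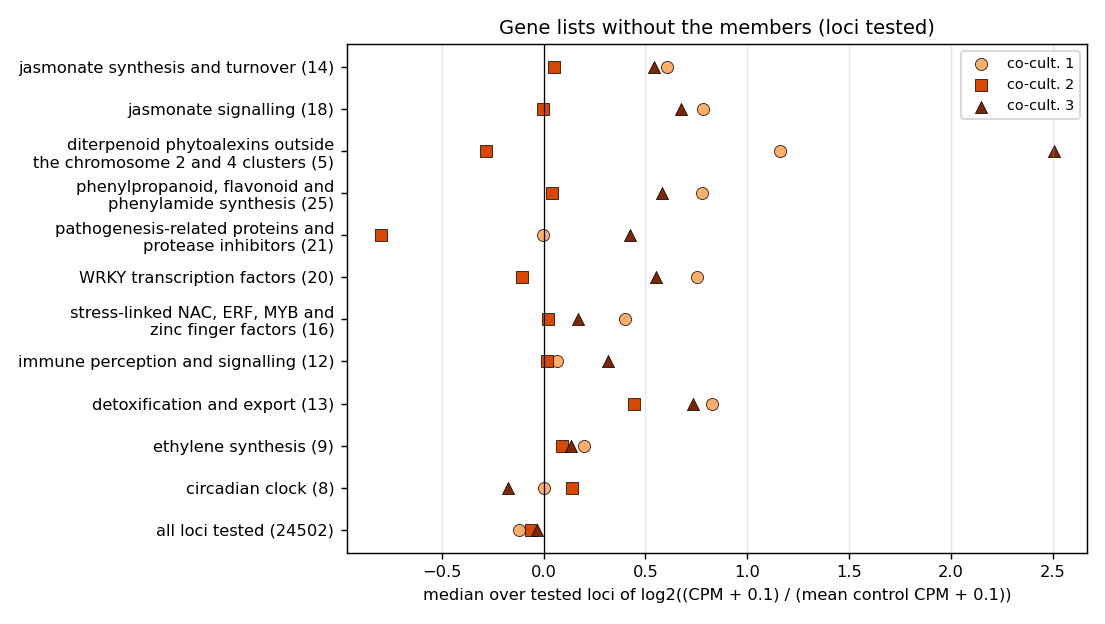
Median over the tested loci of each list of log2 of CPM plus 0.1 over mean control CPM plus 0.1, for each co-cultivated library, with the members left out; the number of loci is in brackets, and lists with fewer than 5 are not drawn. Replicates 1 and 3 lie to the right of replicate 2 in every pathway list drawn except the circadian clock. They are far apart from each other in the 5 diterpenoid genes, while all loci sit near 0.

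Apart from the xylem markers, markers of the cells and tissues that a root tip sample could hold ran differently from the members. The 3 endodermis and exodermis markers summed to 1340, 1423 and 778 CPM in the controls and 2666, 2452 and 1523 CPM in the co-cultivated libraries, and the 2 root hair markers to 15.1, 7.24 and 19.5 CPM against 50.6, 55.4 and 27.1 CPM. None of these 5 root markers was at 0 in any library. In both lists co-cultivated replicates 1 and 2 were alike and replicate 3 was lower. The 6 cell cycle and meristem markers summed to 182, 261 and 120 CPM against 163, 208 and 182 CPM, and the 3 xylem markers to 702.5, 423 and 1153 CPM against 901, 786 and 981.5 CPM. The 5 green tissue markers summed to 22.33, 10.7 and 23.1 CPM against 1.96, 7.25 and 24.0 CPM, with 2 of them at 0 in co-cultivated replicate 1, and the phloem marker SUT1 to 12.5, 9.65 and 9.96 CPM against 5.96, 8.64 and 6.71 CPM. Control replicate 2 was the lowest control for the xylem, root hair, green tissue and phloem markers, as it was in 65 members. Xylem markers were also lowest in replicate 2 within the co-cultivated group, and their part in the members' pattern was not tested.

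Members near the thresholds differed little from loci just outside. The lowest ratios inside belonged to ABCG43 at 3.01 and AOX1b at 3.02, and the nearest loci outside, both unnamed, had 2.98 and 2.95. The nearest loci under 5 CPM, at 4.98 CPM each, were TPS46 and an unnamed locus. The nearest under the highest control were the locus listed as PR5b (Os12g0629700), with 32.7, 11.9 and 42.7 CPM against 42.3, 8.64 and 62.2 CPM, and GLP8-10, given above.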

How the data were processed

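Rice root tip libraries, 3 control and 3 co-cultivated, were compared from the table of estimated counts per locus that the authors deposited, with RAP-DB identifiers; most values are whole and no scaling was applied, as the column totals differ. The submitters' processing notes name IRGSP-1.0 and DESeq2 1.28.1. Aligner and counter: not given in the sources used here. The planned tests took the table for whole counts; the estimated counts were rounded for the count models, and the values as deposited were used for CPM, the count divided by the column total and multiplied by 1e6.

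The members and gene lists were chosen with earlier results of these data known, and some germin-like and other names were added after the values were seen. Genes named are members in a list, up to 2 unnamed members of highest rank, up to 3 abundant other genes per list (of which a few are printed) and loci next to a threshold; others are named where a count was small. Of the symbol and locus pairs, those whose symbol lay on another chromosome or out of order in the gene table of ASM3414082v1 were dropped. Coordinates and sequences are not printed, since the builds differ.

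The contrast was tested in R 4.3.3 by edgeR 4.0.16 (filterByExpr, TMM, quasi-likelihood F test, group as the only term, two-sided, Benjamini-Hochberg adjustment over 24615 loci). Its p-values weigh the difference between the groups against the spread between these samples. DESeq2 1.42.0 and limma 3.58.1 (voom) were alternatives, with other filters, scalings and thresholds and each library left out. List values are medians of log2 of CPM plus 0.1 over the control mean plus 0.1. On data simulated for this contrast edgeR recovered 0, 4, 30 and 44 of 50 loci changed 1.5, 2, 4 and 8-fold, and 10 of its 88 calls were false. Column totals of 21551508 to 25120456 counts set the counting precision, and intervals cover counting error only.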

Additional observations from a re-analysis of the deposited data

How the results depend on the processing

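The number of members was within 1.5 times of 113 with TMM factors (114, of which 110 were members before), a minimum of 2 or 10 CPM, an offset of 1 CPM, no limit on number, all identifiers kept, or loci with non-whole values left out (101; an alternative chosen after seeing the data). It was 200, the limit on number, at a threshold of 2 times and 57 at 5 times. Leaving out 1 library at a time gave 113 to 200; the 200, found without co-cultivated replicate 1, reached the limit on number and held 97 of the 113. Without co-cultivated replicate 2 the selection cannot be made. With TMM factors the ratio of AOX1b was 2.93; with an offset of 1 CPM DPF (2.77), WRKY76 (2.98), AOX1b (2.13) and ABCG43 (2.93) were under 3. The count of members with a near neighbour was 27 within 2 loci and 35 within 10.

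Calls depended more on the method. DESeq2 called 1518 loci higher and 1017 lower, and 24 members, and limma-voom called 0 members. Leaving out 1 library at a time gave 56 to 361 loci called higher, 83 to 493 lower and 0 to 26 members. The low end for members was reached without any single control and without co-cultivated replicate 1 or 3, and the 26 without co-cultivated replicate 2. Loci called higher numbered 65 without control replicate 1, 204 without control replicate 3, 56 without co-cultivated replicate 1, 226 without replicate 2 and 170 without replicate 3. Loci called lower numbered 83 without control replicate 1, 493 without control replicate 2, and 86, 126 and 118 without co-cultivated replicates 1, 2 and 3. Whether replicate numbers pair the samples was not settled. The correlations of same-numbered deviations were 0.0841, 0.186 and 0.186. Those of differently numbered samples ran from -0.225 to 0.0961, the highest between co-cultivated replicate 1 and control replicate 3. With a replicate block 403 of 24615 loci were called higher and 296 lower, and 9 of 113 members higher. As above, nothing is read from the counts of members called, since the selection used this contrast. The cause of the shifts in calls was not tested. Members rest on 3 libraries a group with replicate 2 apart, and a locus with few counts there has a wide interval.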
